A study of Gallus gallus with 19 samples.

Results

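The comparison described here sets the effect of Nanog knockdown against the effect of Klf4 knockdown in the neural plate border (NPB) of the chicken embryo, each measured against the controls of its own experiment. It used 14 of the 19 bulk RNA sequencing samples of the series, namely 4 Nanog MO and 4 Nanog control MO samples together with 4 Klf4 MO and 2 Klf4 control MO samples. The morpholinos (MO) used for knockdown are synthetic antisense molecules that block translation, so that protein synthesis is meant to stop while the mRNA remains. At gastrula stage (HH4), wild type embryos were electroporated with the Nanog or Klf4 MO on their one side and with control MO on the opposite side, both together with an empty vector as carrier DNA. The NPB tissue was taken at HH7/HH8-, when the neural folds form. Every sample was a pool of the same side of several embryos, and the deposited design text and the study's methods give different numbers of embryos per pool. Samples with the same replicate number were taken as the 2 sides of one pool, which the bilateral design implies but no label states. This gives 4 Nanog pools and Klf4 pools 1 and 3, while Klf4 MO replicates 2 and 4 had no control partner here. For each gene the difference of differences was (Nanog MO minus Nanog control MO) minus (Klf4 MO minus Klf4 control MO) on the log2 scale. A value above 0 means that the MO side was higher relative to its own control side in the Nanog experiment than in the Klf4 experiment.

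Nanog is a homeobox transcription factor and Klf4 a zinc finger transcription factor, and both are best known for holding mammalian embryonic stem cells in the pluripotent state together with Oct4, whose chicken counterpart is PouV. The NPB lies between the neural plate and the non-neural ectoderm. There, Wnt, BMP and FGF signals switch on a group of border specifiers such as Pax7, Msx1, Zic1 and Tfap2a, which in turn activate the neural crest specifiers such as Snai2, Foxd3 and Sox10. A gene that responds alike to loss of either factor has a difference of differences near 0, also where both knockdowns move it.

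The deposited raw counts summed to 31215191 to 44726348 reads per sample, and 18835 genes were tested. Values below are CPM, read counts scaled to library size, after TMM scaling, and errors of log2 values are standard errors. Unless another fit is named, they were derived from the F statistic of the edgeR test, which does not use the pairing of the 2 sides. On principal component 1, which held 44.4% of the variance, the 8 samples of the Nanog experiment lay on one side and the 6 samples of the Klf4 experiment on the other. On component 2 (12.8%) Klf4 MO replicates 2 and 4, which had no control partner, lay at -11.2 and -15.6. The other Klf4 samples lay there at 11.9 to 18.3. The labels give the tissue as midbrain and the cell type as neural crest. Border markers were present in every sample, with PAX7 from 6.70 to 42.7 CPM and TFAP2A from 73.3 to 165 CPM, whereas SOX10, a marker of specified neural crest, was at 4.41 to 7.49 CPM. SOX2, a neural plate gene, was at 123 to 156 CPM in Nanog control MO and 16.9 to 39.8 CPM in Klf4 control MO samples, so the 2 control groups started from different levels. APOA1, which the endoderm list holds, was at 104 to 297 CPM in Nanog control MO and 286 to 701 CPM in Klf4 control MO samples. A difference between the 2 experiments can therefore start from unequal control levels. The levels of both control groups are given for most of the genes described sample by sample. In bulk samples, fewer cells of a type and less RNA per cell cannot be told apart.

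No gene passed the threshold in the difference of differences. With edgeR's quasi-likelihood test 0 of 18835 genes (0%) had an adjusted p under 0.05, and the smallest adjusted p was 0.0689. At an unadjusted p under 0.05 there were 758 genes (4.02%), 442 with a value above 0 (2.35%) and 316 with a value below 0 (1.68%). This share was no higher than the threshold itself gives without any effect. As this test does not use the pairing of the 2 sides, the share cannot show whether the 758 genes are an excess. A fit that treats the pool as a random block (limma voom, correlation within pools 0.493) uses all 14 samples and called 12 genes (0.0637%), 6 above 0 and 6 below 0, with 1767 (9.38%) at an unadjusted p under 0.05. The 12 were HUNK, BOC, SALL3, MSX1, ITPKB and TM7SF3 below 0, and MDM2, ALK, MLX and 3 genes without a symbol above 0. This count depended on single samples. It was 0 without Klf4 control MO replicate 3, 1 without Klf4 control MO replicate 1, 2 without Nanog MO replicate 3, 3 without Klf4 MO replicate 3 and 6 without Klf4 MO replicate 2, but 23 without Klf4 MO replicate 1 and 49 without Nanog MO replicate 4. With the pool as a fixed block in edgeR, on the 12 partnered samples, 0 genes were called (1401 at an unadjusted p under 0.05, smallest adjusted p 0.126), and DESeq2 on the 14 samples called 29. Of the 12 genes, 11 were also among the 29. The median standard error over genes of at least 1 CPM was 0.23 for the difference of differences, 0.14 for the Nanog effect and 0.18 for the Klf4 effect.

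The separate effects differed in their number of calls. The Nanog effect had 52 genes with an adjusted p under 0.05 (0.276%), 40 higher (0.212%) and 12 lower (0.0637%), with 1444 at an unadjusted p under 0.05 (7.67%). The Klf4 effect had 0 genes, with 656 at an unadjusted p under 0.05 (3.48%) in edgeR, a share that likewise cannot show whether there is an excess. DESeq2 called 17 genes in the Klf4 effect and the random block 5 (0.0265%), so the 0 is a statement about this test with 2 controls. With the pool as a block, the Nanog effect had 438 genes (fixed) or 578 genes (random, 3.07%). Its 52 calls became 117 without Nanog control MO replicate 2, and 30 without Klf4 MO replicate 2. They became 23, 21 and 18 without Nanog control MO replicates 1, 3 and 4, and 22, 21 and 24 without Nanog MO replicates 1, 2 and 3. Of the 40 genes that rose after Nanog MO, the median Nanog effect was 1.98 and the median Klf4 effect of the same genes was 0.16, with 30 of the 40 above 0. Of the 12 that fell, the medians were -0.51 and -0.09, with 9 of the 12 below 0. Of all 18835 genes tested, 9588 had a Klf4 effect above 0 and 9239 had one below 0. Across the 13796 genes of at least 1 CPM the Pearson correlation of the 2 effects was 0.12, a description across genes, which are not independent replicates. Among the 534 of these genes with an unadjusted p under 0.05 in the difference of differences, the 2 effects had opposite signs in 444, against 43.9% of all 13796. Genes chosen for a large difference tend to have opposite signs, so this count is a description.

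**Figure D1:**
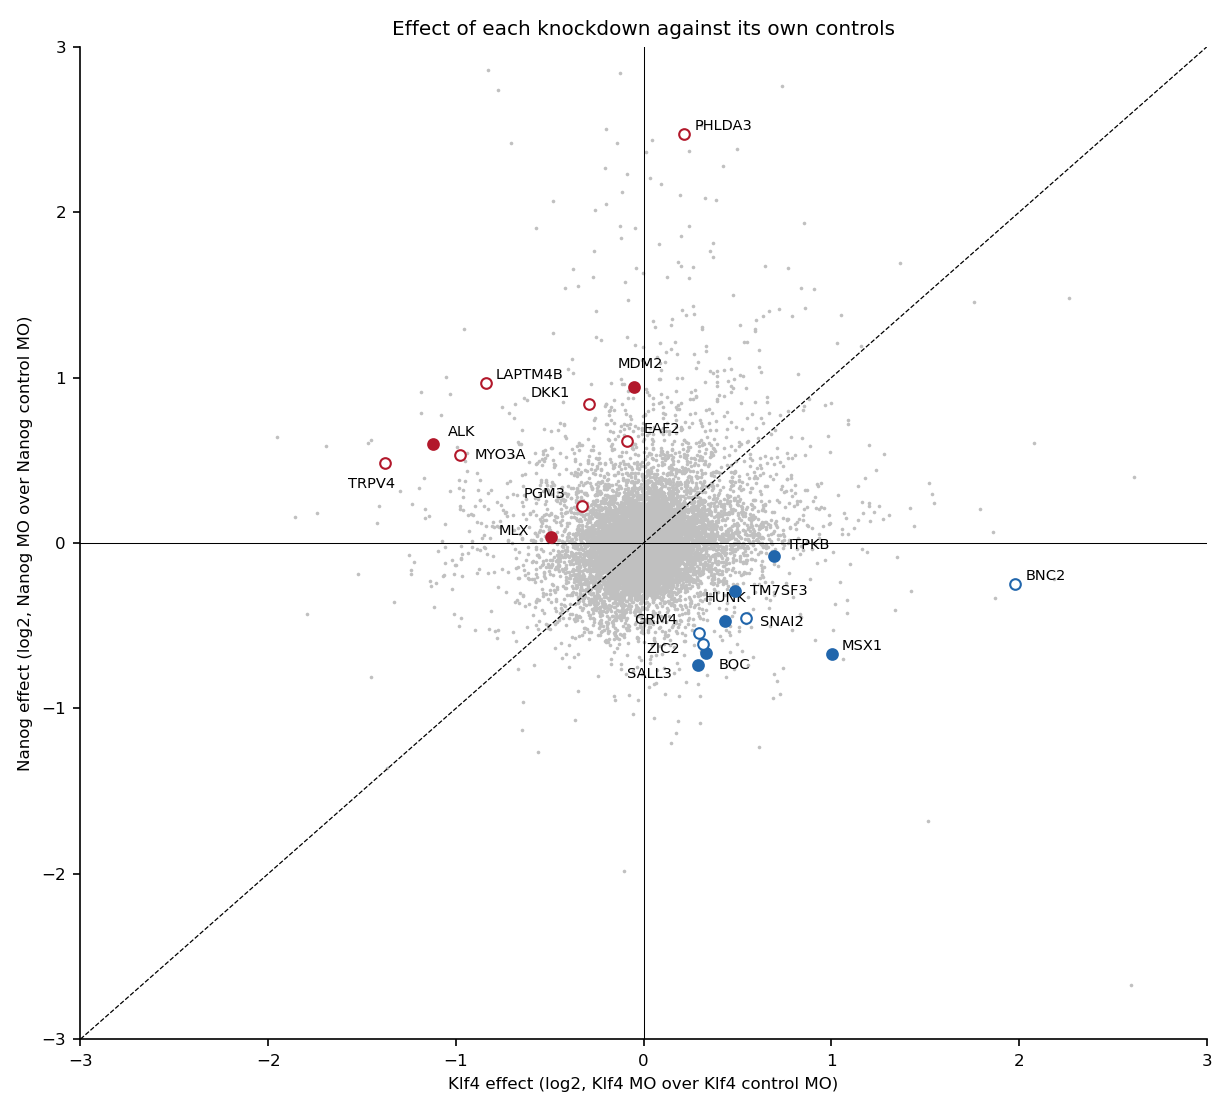
Log2 effect of Nanog MO (vertical axis) against log2 effect of Klf4 MO (horizontal axis), each over its own control MO, for the 13796 genes with a mean of at least 1 CPM (grey points). The 20 named genes with a symbol and the smallest p above (red) and below (blue) the dashed line of equal effects are labelled, and filled circles mark the 9 of them called with the pool as a random block.

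The targeted genes themselves did not differ detectably. NANOG was at 11.2, 3.62, 6.60 and 4.84 CPM in Nanog control MO and 7.12, 6.47, 4.65 and 7.42 CPM in Nanog MO samples, and the groups overlapped. Its Nanog effect was -0.03 ± 0.32 and its difference of differences 0.08 ± 0.50 (adjusted p = 1). KLF4 was at 5.0 and 5.99 CPM in the 2 Klf4 control MO samples and 5.99, 14.1, 3.97 and 8.53 CPM in the 4 Klf4 MO samples, which also overlapped, with a Klf4 effect of 0.57 ± 0.35. POU5F3, the gene for PouV, had effects of -0.23 ± 0.14 and 0.01 ± 0.17. As the MOs act on translation, such mRNA levels give no check of protein loss.

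Border specifiers held several genes with effects of opposite sign. Of these, MSX1 (ENSGALG00000015013), a homeobox gene of the early border, had the smallest p in the difference of differences. MSX1 was at 104, 78.3, 92.1 and 108 CPM in Nanog control MO replicates 1 to 4 and at 54.1, 70.5, 55.7 and 59.5 CPM in Nanog MO replicates 1 to 4. Klf4 control MO replicates 1 and 3 had 34.6 and 36.3 CPM and Klf4 MO replicates 1 to 4 had 51.9, 77.7, 60.4 and 94.2 CPM. All 4 Nanog MO samples were below all their controls and all 4 Klf4 MO samples were above theirs. The Klf4 controls held the lowest MSX1 levels of the 14 samples, and the 2 MO groups overlapped. The Nanog effect was -0.67 ± 0.16 and the Klf4 effect 1.00 ± 0.21, giving a difference of differences of -1.67 ± 0.26 (edgeR adjusted p = 0.0803, not called). With the pool as a random block it was -1.46 ± 0.22 (adjusted p = 0.0227) and on the 12 partnered samples with a fixed block -1.33 (adjusted p = 0.126). Within pools, the log2 ratio of MO over control CPM was -0.93, -0.15, -0.72 and -0.85 in Nanog pools 1 to 4 and 0.58 and 0.73 in Klf4 pools 1 and 3.

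Such a pattern, with no overlap in either experiment and opposite directions, was found in 41 of the 18835 genes (0.218%), and with Nanog MO below and Klf4 MO above in 14 (0.0743%). No overlap in the Nanog experiment alone held for 4.6% of genes and in the Klf4 experiment, with only 2 controls, for 11.1%. Groups this small also separate by chance, and whether the 41 genes exceed that was not tested. The separation is therefore a description of each gene. HUNK, SALL3 and TM7SF3 were among the 14, and are described below. TFAP2A, ZIC2 and ZIC1 separated in the Nanog experiment only.

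TFAP2A encodes an AP-2 transcription factor used by both border and non-neural ectoderm. The 4 Nanog control MO samples had 165, 131, 119 and 161 CPM of TFAP2A, and the 4 Nanog MO samples 93.1, 118, 73.3 and 108 CPM. Its levels in the Klf4 experiment were 106 and 84.9 CPM in control MO replicates 1 and 3 and 111, 122, 126 and 103 CPM in the 4 Klf4 MO samples. Nanog MO samples were all below their controls and the Klf4 groups overlapped. TFAP2A had a difference of differences of -0.83 ± 0.23 (adjusted p = 0.857, edgeR). ZIC2, a zinc finger gene of the dorsal neural plate and border, had the same order of groups. Its CPM was 399, 281, 319 and 413 in Nanog control MO replicates 1 to 4, and 242, 211, 247 and 224 in Nanog MO replicates 1 to 4. On the Klf4 side, ZIC2 had 186 and 204 CPM in the 2 controls and 216, 271, 187 and 297 CPM in the 4 Klf4 MO samples. In the difference of differences it was at -0.93 ± 0.23 (adjusted p = 0.572). ZIC1, a close relative, was at 30.8, 31.8, 28.2 and 31.3 CPM in Nanog control MO and 13.2, 17.9, 16.4 and 20.1 CPM in Nanog MO samples. It was at only 6.75 and 3.87 CPM in the Klf4 controls and 5.09, 8.36, 3.35 and 9.15 CPM in Klf4 MO samples, all below the 8 samples of the Nanog experiment, and the difference of differences was -1.14 ± 0.42.

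Over the whole list of 16 border specifiers, 13 had a difference of differences below 0, and 5 of them (MSX1, ZIC2, TFAP2A, ZIC1 and TFAP2B) at an unadjusted p under 0.05, against 51.2% below 0 and 1.68% among all genes tested. None was above 0 at that p. The median was -0.32, made of a median Nanog effect of -0.42 and a median Klf4 effect of 0.19, and the median of all genes was -0.01. Over 25 alternative settings the list median lay between -0.68 (without Klf4 control MO replicate 1) and -0.28. In 9 of the 16 the Nanog effect was below 0 and the Klf4 effect above 0, and none had the reverse. Over all 18835 genes tested these counts were 4285 and 4191. No member of the list was called in either separate effect by edgeR, and the random block called MSX1 only. As the list was written with earlier results of these data known, its counts are not independent evidence of its direction. The summed level of the list was 1296 to 1526 CPM in Nanog control MO, 1042 to 1125 in Nanog MO, 999 to 1119.9 in Klf4 control MO and 1026 to 1198 in Klf4 MO samples. From the control to the MO side this sum went from 999 to 1038 CPM in Klf4 pool 1 and from 1119.9 to 1026 in pool 3. Klf4 MO replicates 2 and 4, which had no control partner, held the highest sums of the Klf4 experiment, at 1198 and 1174 CPM. PAX7, a paired-box gene taken as a first mark of the border, was at 21.4 to 42.7 CPM in Nanog control MO, 7.72 to 22.5 in Nanog MO, 11.3 to 12.2 in Klf4 control MO and 6.70 to 17.9 in Klf4 MO samples. For the summed list the Nanog controls were the one group that stood above the rest, and Nanog MO samples were at the level of the Klf4 experiment.

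The neural crest specifiers also lay mostly below 0. SNAI2 (ENSGALG00000030902) encodes the Snail-family repressor also called Slug, which acts when crest cells leave the epithelium. Nanog controls held SNAI2 at 47.7, 63.7, 61.6 and 66.9 CPM and Nanog MO samples at 53.8, 42.4, 42.0 and 37.1 CPM, each in replicate order 1 to 4. For Klf4 the values were 32.0 and 31.9 CPM in control MO replicates 1 and 3 and 38.3, 47.1, 47.1 and 53.9 CPM in MO replicates 1 to 4. The Nanog groups overlapped through Nanog MO replicate 1, and all Klf4 MO samples were above both controls. SNAI2 had a difference of differences of -1.0 ± 0.22 (adjusted p = 0.418 in edgeR, 0.122 with the random block), and DESeq2 called it. MYCN, a Myc-family gene of early crest and neural progenitors, was at 301, 214, 250.3 and 317 CPM in Nanog control MO and 204, 146, 182 and 189 CPM in Nanog MO samples, without overlap. It was at 141 and 163 CPM in Klf4 control MO and 175, 178, 156 and 161 CPM in Klf4 MO samples, with overlap, and its difference of differences was -0.72 ± 0.20. WNT1, the dorsal neural fold ligand, had a Nanog effect of -1.04 ± 0.23 and a Klf4 effect of -0.06 ± 0.28. DRAXIN, a secreted Wnt antagonist of the cranial crest, had -0.79 ± 0.25 and 0.16 ± 0.31.

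Of the 18 listed crest specifiers, 17 were tested. The difference of differences was below 0 in 13 of the 17, against 51.2% of all genes tested, and above 0 in 4. At an unadjusted p under 0.05, 4 of the 17 were below 0 and none above 0, against 1.68% and 2.35% of all genes. The median was -0.33 (-0.45 in the Nanog effect, 0.11 in the Klf4 effect), and from -0.47 to -0.21 over the alternatives. None was called in either effect by edgeR or in the difference of differences by the random block. In 7 of the 17 the Nanog effect was below 0 and the Klf4 effect above 0, and none had the reverse. Among all 18835 genes tested these counts were 4285 and 4191. This list too was written with earlier results of these data known, so its counts are not independent evidence. FOXD3 and SOX9 were members whose Klf4 effect was also below 0, as the plot of list members shows. FOXD3 was at 53.25 to 102 CPM in Nanog control MO and 31.7 to 72.3 CPM in Nanog MO samples. In the Klf4 experiment FOXD3 was at 23.7 to 36.4 CPM in control MO and 8.74 to 30.5 CPM in MO samples.

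HUNK (ENSGALG00000015879), a serine/threonine kinase of the AMPK-related family, had the smallest p among genes with a symbol. HUNK was at 95.1, 109.7, 101 and 101 CPM in Nanog control MO replicates 1 to 4 and at 77.8, 73.5, 61.5 and 80.5 CPM in Nanog MO replicates 1 to 4. Klf4 control MO replicates 1 and 3 had 115 and 121 CPM and Klf4 MO replicates 1 to 4 had 158, 174, 157 and 151 CPM. All Nanog MO samples were below their controls and all Klf4 MO samples above theirs, and the 4 Klf4 MO samples were the 4 highest of the 14. HUNK fell after Nanog MO by 0.47 on the log2 scale (SE 0.09, adjusted p = 0.0373), while the Klf4 effect was 0.43 ± 0.11 (adjusted p = 0.884). Its difference of differences was -0.90 ± 0.14 (adjusted p = 0.0803 in edgeR, 0.00902 with the random block, 0.126 with the fixed block). Every partnered pool had the direction of its experiment, with log2 ratios of -0.29, -0.57, -0.71 and -0.33 in the Nanog pools and 0.45 and 0.37 in the Klf4 pools.

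SALL3 (ENSGALG00000041404), a spalt-family zinc finger gene of the neural plate, differed mainly through the Nanog experiment. The 4 Nanog control MO samples had 48.3, 56.4, 51.6 and 53 CPM of SALL3, and the 4 Nanog MO samples 31.4, 27.2, 29.0 and 37.7 CPM. Its levels in the Klf4 experiment were 28.9 and 28.3 CPM in control MO replicates 1 and 3 and 37.8, 34.4, 30.3 and 37.4 CPM in the 4 Klf4 MO samples. It fell after Nanog MO by 0.74 on the log2 scale (SE 0.11, adjusted p = 0.00909), and its Nanog MO levels overlapped those of the Klf4 experiment. The Klf4 effect was 0.29 ± 0.14, without overlap between the Klf4 groups. The difference of differences was -1.03 ± 0.18 (adjusted p = 0.156 in edgeR, 0.0183 with the random block). BOC (ENSGALG00000015152) encodes a cell surface co-receptor for Hedgehog ligands. Its CPM was 63.0, 70.6, 79.0 and 77.2 in Nanog control MO replicates 1 to 4, and 47.0, 43.8, 45.1 and 47.0 in Nanog MO replicates 1 to 4. On the Klf4 side, BOC had 41.7 and 58.4 CPM in the 2 controls and 53, 61.2, 66.2 and 71.7 CPM in the 4 Klf4 MO samples. It fell after Nanog MO by 0.66 (SE 0.12, adjusted p = 0.0285). The Klf4 groups overlapped, since the 2 controls differed, yet both partnered Klf4 pools had a ratio above 0, at 0.34 and 0.18. BOC had a difference of differences of -1.0 ± 0.19 (adjusted p = 0.282 in edgeR, 0.0183 with the random block).

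TM7SF3 (ENSGALG00000014085), a gene for a multipass membrane protein, was the other one of this group called with the random block. Nanog controls held TM7SF3 at 28.3, 26.6, 33.9 and 27.3 CPM and Nanog MO samples at 24.3, 23.4, 22.6 and 24.6 CPM, each in replicate order 1 to 4. For Klf4 the values were 31.6 and 38.4 CPM in control MO replicates 1 and 3 and 54.6, 48.4, 49.5 and 44.0 CPM in MO replicates 1 to 4. Nanog MO samples were all below their controls by a small margin and Klf4 MO samples all above theirs, with effects of -0.29 ± 0.10 and 0.49 ± 0.13. Its difference of differences was -0.78 ± 0.17 (adjusted p = 0.418 in edgeR, 0.0417 with the random block). GRM4, which encodes a metabotropic glutamate receptor, had a difference of differences of -0.84 ± 0.21 and was not called by either fit (adjusted p = 0.572 and 0.0671). It was at 127, 145, 141 and 152 CPM in Nanog control MO and 94.0, 102, 90.6 and 102 CPM in Nanog MO samples, and the Klf4 groups overlapped.

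**Figure D2:**
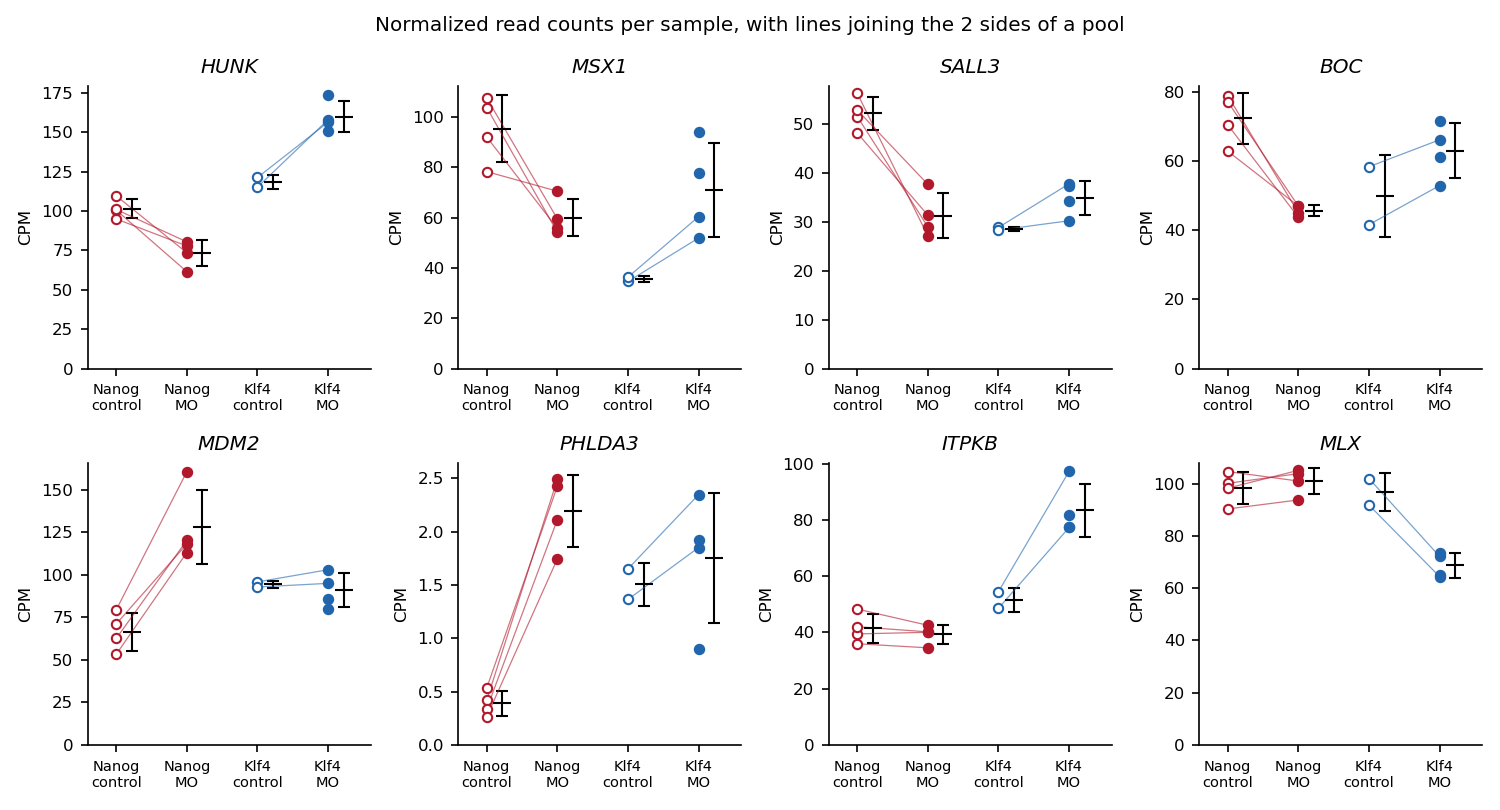
TMM-scaled CPM of 8 genes in each of the 14 samples, with open circles for control MO and filled circles for MO samples, thin lines joining the 2 sides of a pool, and black bars giving mean and SD of each group (n = 4, 4, 2 and 4 from left to right). HUNK, MSX1, SALL3 and BOC lie lower on the Nanog MO side and have higher means on the Klf4 MO side, MDM2 and PHLDA3 separate in the Nanog experiment only, and ITPKB and MLX in the Klf4 experiment only.

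Several targets of the transcription factor p53 had a difference above 0, with most of it in the Nanog effect. MDM2 (ENSGALG00000009942) encodes the ubiquitin ligase that degrades p53 and is itself induced by it. MDM2 was at 79.5, 62.6, 71.2 and 53.3 CPM in Nanog control MO replicates 1 to 4 and at 161, 120.4, 118 and 113 CPM in Nanog MO replicates 1 to 4. Klf4 control MO replicates 1 and 3 had 95.9 and 92.9 CPM and Klf4 MO replicates 1 to 4 had 103, 85.9, 95.1 and 80.3 CPM. All Nanog MO samples were above their controls, and both sides of the Klf4 experiment lay between the 2 Nanog groups. MDM2 rose after Nanog MO by 0.94 ± 0.13 (adjusted p = 0.00882) and its Klf4 effect was -0.05 ± 0.16. The difference of differences was 0.99 ± 0.21 (adjusted p = 0.418 in edgeR, 0.0228 with the random block, 0.126 with the fixed block). The ratios within pools were 1.01, 0.94, 0.73 and 1.08 in the Nanog pools and 0.10 and 0.03 in the Klf4 pools.

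PHLDA3 (ENSGALG00000019802), a p53-induced repressor of the kinase AKT, was a low gene with a large difference. The 4 Nanog control MO samples had 0.534, 0.420, 0.339 and 0.265 CPM of PHLDA3, and the 4 Nanog MO samples 2.43, 2.49, 2.11 and 1.74 CPM. Its levels in the Klf4 experiment were 1.36 and 1.65 CPM in control MO replicates 1 and 3 and 1.85, 1.92, 2.35 and 0.901 CPM in the 4 Klf4 MO samples. The 4 Nanog controls stood apart below the other 10 samples, since both sides of the Klf4 experiment were higher. It rose after Nanog MO by 2.47 ± 0.31 (adjusted p = 0.00544), and its difference of differences was 2.26 ± 0.45 (adjusted p = 0.36 in edgeR, 0.0563 with the random block). DESeq2 called PHLDA3 in the difference of differences. CDKN1A encodes p21, the inhibitor of cyclin-dependent kinases through which p53 halts the cell cycle. Its CPM was 13.1, 6.48, 8.97 and 4.47 in Nanog control MO replicates 1 to 4, and 53.5, 40.4, 54.4 and 24.0 in Nanog MO replicates 1 to 4. On the Klf4 side, CDKN1A had 10.8 and 18.3 CPM in the 2 controls and 26.4, 21.6, 21.3 and 12.9 CPM in the 4 Klf4 MO samples. It rose after Nanog MO by 2.38 ± 0.34 (adjusted p = 0.00882), the Klf4 groups overlapped, and the difference of differences was 1.88 ± 0.50 (adjusted p = 0.814). CCNG1, which encodes cyclin G1, rose by 0.78 ± 0.12 (adjusted p = 0.0134) and had a difference of differences of 0.67 ± 0.19.

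The list held 33 p53 targets, of which 30 were tested. In the Nanog effect 6 of the 30 rose and none fell, against 0.212% and 0.0637% of all genes, and none was called in the Klf4 effect. The 6 were PHLDA3, MDM2, CDKN1A, CCNG1, SESN1 and TNFRSF10B, the last being a death receptor gene. SESN1 and TNFRSF10B, named after their values were seen, had Klf4 effects of 0.24 ± 0.18 and 0.67 ± 0.34, in the same direction as their Nanog effects of 0.78 ± 0.15 and 1.40 ± 0.27. In the difference of differences 5 of the 30 had an unadjusted p under 0.05 above 0 and none below 0, against 2.35% and 1.68% of all genes. The list median was only 0.07. PMAIP1, which encodes the apoptosis inducer Noxa, and GDF15, a stress-induced cytokine gene, are further p53 targets outside the list and were also named after their values were seen. They rose after Nanog MO by 2.11 ± 0.33 (adjusted p = 0.0121) and 1.77 ± 0.26 (adjusted p = 0.00882), with Klf4 effects of 0.19 ± 0.40 and 0.35 ± 0.31. The p53 list was compiled with results of these samples known, so its count is not independent evidence of its direction. Whether the Nanog and control MO sides differed in general stress was not tested, and the immediate early and heat shock list, with 25 genes tested, had a median Nanog effect of 0.08, with 0 genes called.

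**Figure D3:**
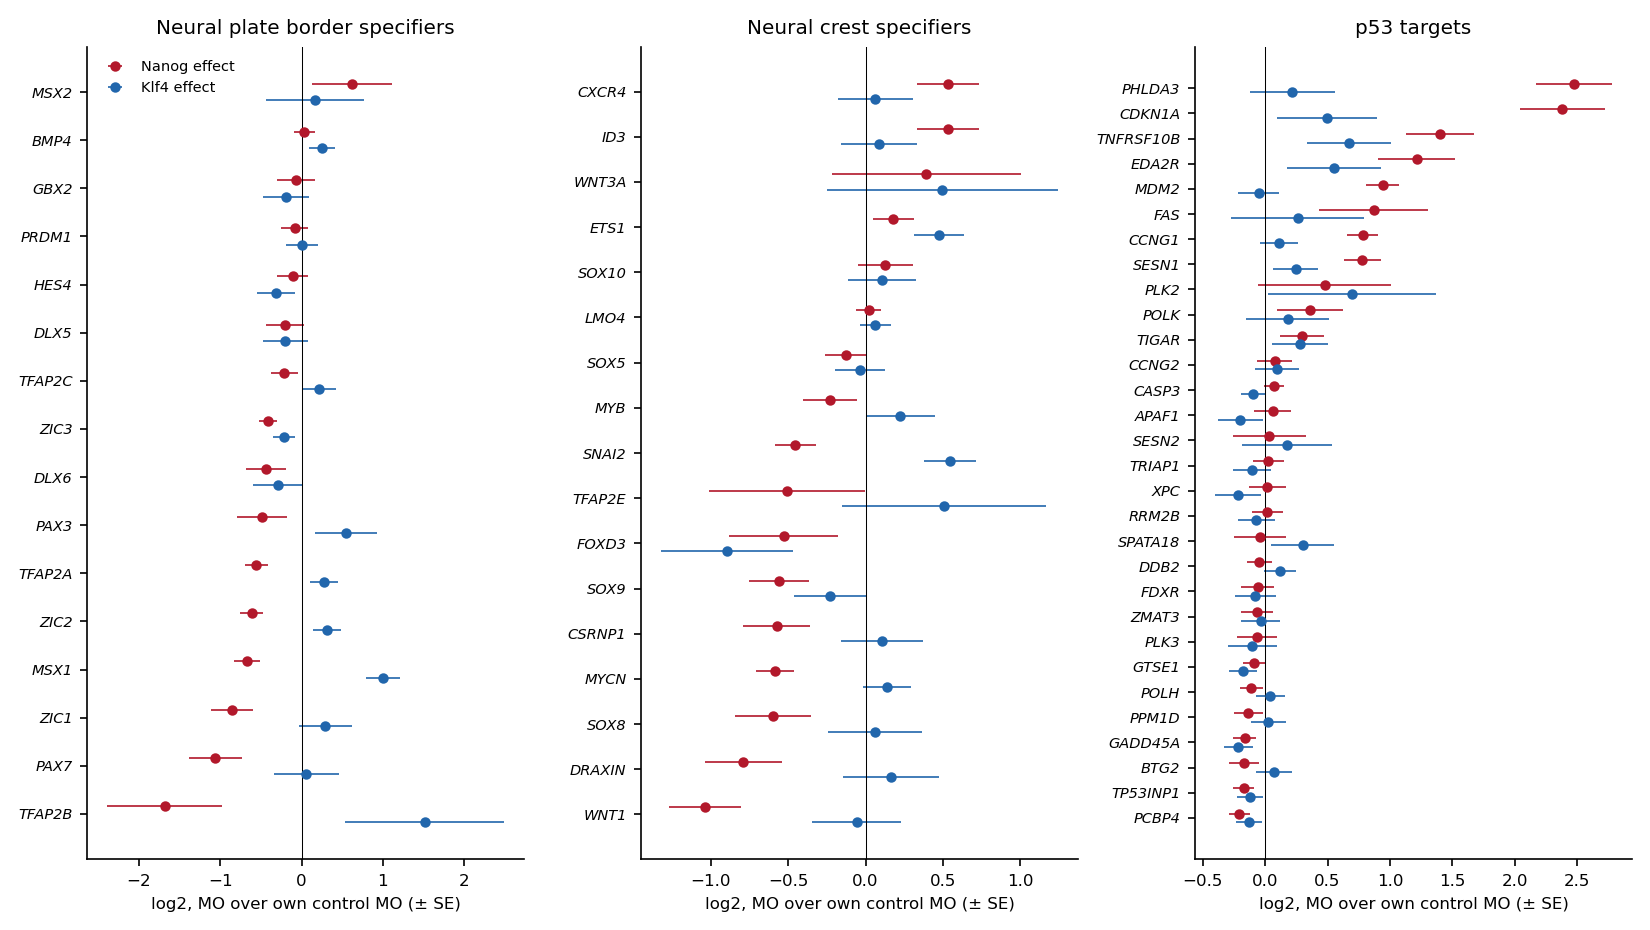
Log2 effect of Nanog MO (red) and of Klf4 MO (blue) over their own controls, with standard errors from the edgeR fit of 14 samples, for every tested member of 3 lists, ordered by the Nanog effect. In the border list 9 of 16 genes have a red point below 0 and a blue point above 0, against 4285 of all 18835 genes tested. In the p53 list the red points of PHLDA3 and CDKN1A lie above 2 while most members are near 0 in both.

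For a further set of genes most of the difference lay in the Klf4 effect. ITPKB (ENSGALG00000009068) encodes a kinase that phosphorylates inositol trisphosphate. Nanog controls held ITPKB at 39.5, 48.3, 36.0 and 42.0 CPM and Nanog MO samples at 40.1, 42.6, 34.5 and 40.2 CPM, each in replicate order 1 to 4. For Klf4 the values were 48.6 and 54.5 CPM in control MO replicates 1 and 3 and 77.3, 81.8, 97.3 and 77.5 CPM in MO replicates 1 to 4. The Nanog groups overlapped, and the 4 Klf4 MO samples were the 4 highest of the 14. The Klf4 effect was 0.69 ± 0.14, not called by edgeR (adjusted p = 0.616) and called with the random block (adjusted p = 0.02), and the Nanog effect was -0.08 ± 0.11. Its difference of differences was -0.77 ± 0.17 (adjusted p = 0.418 in edgeR, 0.0227 with the random block). MLX (ENSGALG00000003199), the dimerisation partner of glucose-sensing Mondo transcription factors, had the opposite direction. MLX was at 100.1, 90.3, 105 and 98.3 CPM in Nanog control MO replicates 1 to 4 and at 104, 93.8, 101 and 105 CPM in Nanog MO replicates 1 to 4. Klf4 control MO replicates 1 and 3 had 102 and 91.8 CPM and Klf4 MO replicates 1 to 4 had 72.1, 73.4, 64.4 and 64.9 CPM. All 4 Klf4 MO samples were below the other 10 samples of the comparison. Its Klf4 effect was -0.50 ± 0.09 (adjusted p = 0.616 in edgeR, 0.0294 with the random block), and the difference of differences 0.53 ± 0.12 (adjusted p = 0.418 and 0.0349).

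ALK (ENSGALG00000009034), a receptor tyrosine kinase gene, was low, with a larger Klf4 than Nanog effect. The 4 Nanog control MO samples had 3.53, 3.03, 2.14 and 2.38 CPM of ALK, and the 4 Nanog MO samples 5.17, 3.95, 4.18 and 3.49 CPM. Its levels in the Klf4 experiment were 3.31 and 3.30 CPM in control MO replicates 1 and 3 and 2.26, 1.26, 1.16 and 1.40 CPM in the 4 Klf4 MO samples. All Klf4 MO samples were below their controls and the Nanog groups overlapped. The effects were 0.60 ± 0.23 and -1.12 ± 0.28, and the difference of differences was 1.72 ± 0.36 (adjusted p = 0.418 in edgeR, 0.0248 with the random block). LAPTM4B, which encodes a lysosomal membrane protein, had Nanog MO samples above and Klf4 MO samples below their controls, with effects of 0.97 ± 0.25 and -0.84 ± 0.30. MYO3A, an unconventional myosin gene, had the same separation, with 0.53 ± 0.22 and -0.98 ± 0.26. So did PGM3, an enzyme gene of UDP-N-acetylglucosamine synthesis, with the smaller values 0.22 ± 0.09 and -0.33 ± 0.10. The calcium-permeable channel gene TRPV4 had 0.49 ± 0.26 and -1.38 ± 0.31, with all Klf4 MO samples below their controls. BNC2, a zinc finger gene, was at 0.809 and 0.419 CPM in the Klf4 controls and 2.94, 2.59, 1.38 and 2.84 CPM in Klf4 MO samples, and stayed under 1 CPM in all 8 samples of the Nanog experiment, for a difference of differences of -2.23 ± 0.54. LAPTM4B, MYO3A, PGM3, TRPV4 and BNC2 were called neither by edgeR nor with the random block (random block adjusted p = 0.0647, 0.0671, 0.0652, 0.118 and 0.118). All 5 were among the 29 genes DESeq2 called.

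The 3 genes without a symbol that the random block called were all low. ENSGALG00000049182 had the smallest p of the 18835 genes. It was at 0.401, 0.257, 0.443 and 0.265 CPM in Nanog control MO, 2.09, 3.22, 1.95 and 1.94 CPM in Nanog MO, 1.5 and 1.40 CPM in Klf4 control MO and 1.47, 0.567, 0.675 and 0.687 CPM in Klf4 MO samples. Nanog MO samples were all above their controls, the Klf4 groups overlapped, and the Klf4 controls were above the Nanog controls. Its difference of differences was 3.51 ± 0.49 (adjusted p = 0.0689 in edgeR, 0.00902 with the random block). ENSGALG00000048920 was at 0.534, 0.723, 0.417 and 0.232 CPM in Nanog control MO and 2.20, 2.54, 1.92 and 1.39 CPM in Nanog MO samples, while the Klf4 samples of both sides ran from 0.782 to 1.74 CPM, and its difference of differences was 2.25 ± 0.50. ENSGALG00000038424 was at 0.463 and 0.271 CPM in the Klf4 controls and 0.0545, 0.0987, 0 and 0.0237 CPM in Klf4 MO samples, so its Klf4 effect of -2.96 ± 0.63 rests on very few reads.

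Among the other genes called in the Nanog effect, EAF2, a factor associated with transcription elongation, was in the list of smallest p. Its CPM was 49.3, 46.8, 50.7 and 44.2 in Nanog control MO replicates 1 to 4, and 68.2, 74.5, 88.9 and 60.8 in Nanog MO replicates 1 to 4. On the Klf4 side, EAF2 had 47.5 and 56.4 CPM in the 2 controls and 52.7, 47.1, 50.6 and 45.4 CPM in the 4 Klf4 MO samples. It rose after Nanog MO by 0.61 ± 0.11 (adjusted p = 0.032), with no overlap, against a Klf4 effect of -0.09 ± 0.13 and a difference of differences of 0.70 ± 0.17 (adjusted p = 0.572). EPCAM, an epithelial adhesion gene named after its values were seen, had both effects above 0. It rose after Nanog MO by 0.70 ± 0.11 (adjusted p = 0.0104) and had a Klf4 effect of 0.49 ± 0.13, with every Klf4 MO sample above both controls, so its difference of differences was 0.21 ± 0.17. ZEB2, an EMT-associated repressor of the neural plate list, fell after Nanog MO by 0.48 (SE 0.09, adjusted p = 0.0436), with a Klf4 effect of -0.01 ± 0.11.

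Lists of genes of the neighbouring tissues also had medians apart from that of all genes. In the difference of differences 9197 of all 18835 genes were above 0 and 51.2% below 0. At an unadjusted p under 0.05, 2.35% of all genes were above 0 and 1.68% below 0. Of the 22 neural plate transcription factors 14 were below 0 in the difference of differences, with a median of -0.25, and 2 of them (ZEB2 and IRX2) had an unadjusted p under 0.05. With the fixed block and 1 RUVs factor, a covariate for unwanted variation estimated from the controls, that median was 0.24, and the one of the next list was -0.11. The preplacodal and non-neural ectoderm list, with 18 of 20 genes tested, had 14 above 0 and a median of 0.24. It had 4 members at an unadjusted p under 0.05, all above 0. Among them were CDH1, the gene for E-cadherin (0.60 ± 0.23), and DLX3, a distal-less homeobox gene of the non-neural ectoderm (0.94 ± 0.39). CDH1 was at 69.3 and 69.1 CPM in the Klf4 controls and 36.9, 45.8, 55.8 and 45.2 CPM in Klf4 MO samples, and did not separate in the Nanog experiment, where its effect was 0.01 ± 0.15.

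Endoderm and axial mesoderm genes varied strongly between samples of one group. For comparison, 9197 of all 18835 genes tested were above 0, and 2.35% were above 0 at an unadjusted p under 0.05. The endoderm list (15 of 16 tested) had a median of 0.76 and 12 genes above 0, but a median of -0.30 with 1 RUVs factor and -0.95 with that factor and the fixed block. It summed to 279.6 to 1027 CPM in Nanog control MO, 465 to 1152 in Nanog MO, 999.8 to 1423 in Klf4 control MO and 1098 to 1759.8 in Klf4 MO samples, and the MO side was the higher one in all 6 partnered pools. The endoderm genes FOXA1 and SOX17 had differences of differences of 1.12 ± 0.51 and 1.49 ± 0.69, each with a standard error far above the median one of 0.23. The notochord and prechordal plate list had 7 of 8 genes above 0, 4 of them at an unadjusted p under 0.05, and a median of 1.06. CHRD, the gene for the BMP antagonist Chordin, was at 381, 408, 38.4 and 317 CPM in Nanog control MO, 481, 231, 799 and 272 CPM in Nanog MO, 274 and 670.5 CPM in Klf4 control MO and 249.7, 25.7, 39.0 and 173 CPM in Klf4 MO samples. Its log2 ratios within pools ran from -4.09 in Klf4 pool 3 to 4.36 in Nanog pool 3. Its difference of differences of 2.59 ± 1.10 lay between 1.81 and 3.21 with 1 sample left out, the lowest without Klf4 control MO replicate 3. NOTO, a notochord homeobox gene, and NOG, for the BMP antagonist Noggin, had 1.63 ± 0.57 and 0.99 ± 0.45. These markers differed between the 2 sides in some pools, and their part in the differences of border and crest genes was not tested.

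The mesoderm list had 11 of 16 genes above 0, against 9197 of all 18835, and a median of 0.42. Its member TBXT, the Brachyury gene, had 1.45 ± 0.66. Without Klf4 control MO replicate 3 the median of the list was -0.09. In the blood and endothelium list 9 of 10 tested genes were below 0, against 51.2% of all genes. That list had a median of -0.45, and a median Klf4 effect of 0.82. CDH5, the gene for VE-cadherin, was at 3.38 and 1.45 CPM in the Klf4 controls and 13.2, 11.6, 18.2 and 16.3 CPM in Klf4 MO samples, without overlap, and its difference of differences was -2.22 ± 0.73 (adjusted p = 1). In the Nanog experiment CDH5 was at 2.14 to 11.8 CPM in control MO and 4.55 to 12.3 CPM in MO samples, with overlap. None of these tissue markers was called in the difference of differences by either fit.

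**Figure D4:**
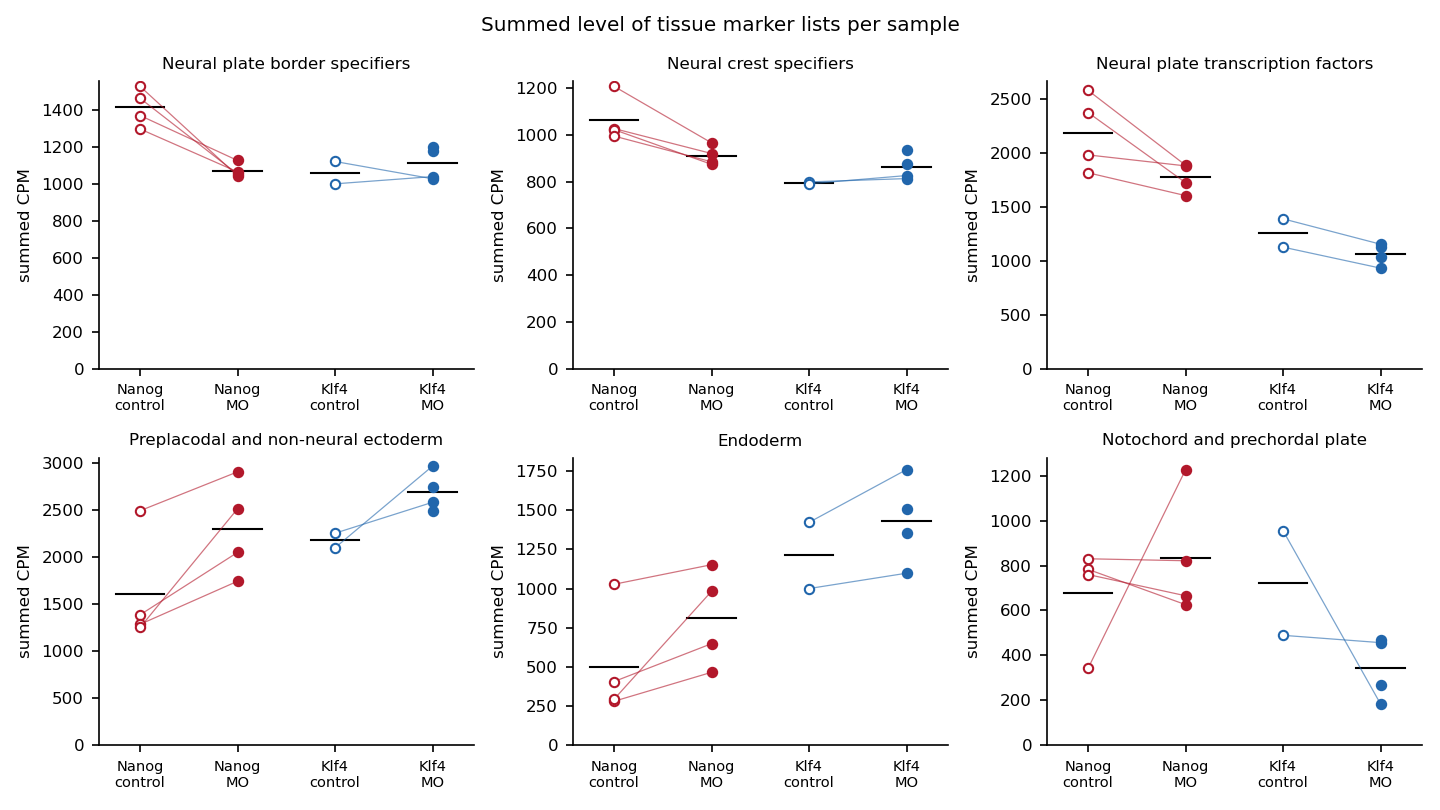
Summed CPM of 6 marker lists in each of the 14 samples, with open circles for control MO, filled circles for MO samples, thin lines joining the 2 sides of a pool and a black bar for the group mean (n = 4, 4, 2 and 4). Border specifiers sum to 1296 to 1526 CPM in the Nanog controls and lie lower in all other groups, and endoderm markers are higher on the MO side of all 6 pools.

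Among the genes of the signalling pathway lists, the Wnt antagonist DKK1 had the smallest p above 0. Nanog controls held DKK1 at 42.8, 40.8, 34.4 and 44.0 CPM and Nanog MO samples at 56.8, 55.6, 85.3 and 93.2 CPM, each in replicate order 1 to 4. For Klf4 the values were 68.9 and 75.4 CPM in control MO replicates 1 and 3 and 70.1, 67.7, 47.1 and 50.6 CPM in MO replicates 1 to 4. Nanog MO samples were all above their controls, the Klf4 groups overlapped, and the difference of differences was 1.14 ± 0.27 (adjusted p = 0.572 in edgeR, 0.112 with the random block). DKK1 also stands in the notochord and prechordal plate list. SP5, a direct target of Wnt signalling in vertebrates, had the opposite sign at -1.08 ± 0.35, with effects of -0.51 ± 0.22 and 0.57 ± 0.27. The secreted Wnt modulators SFRP1 and SFRP2 went apart from each other, at 0.84 ± 0.31 and -0.53 ± 0.19. Of 45 Wnt pathway genes tested, 2 were above and 5 below 0 at an unadjusted p under 0.05, against 2.35% and 1.68% of all genes. Their median was -0.10, and none was called.

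The FGF, BMP, Notch and hedgehog lists each had members at an unadjusted p under 0.05, against 2.35% of all genes above 0 and 1.68% below 0. In the FGF list (24 genes) FGF12 and the feedback inhibitor IL17RD were above 0, at 0.48 ± 0.20 and 0.50 ± 0.20, and the receptor FGFR3 below 0, at -0.40 ± 0.17. The BMP list (27 tested) had a median of 0.02, and its 2 members at an unadjusted p under 0.05 were the antagonists CHRD and NOG given above. The Notch list (23 tested) had a median of -0.10, with 1 member above 0 and 3 below 0 at an unadjusted p under 0.05. Its target genes NRARP and HES1 had opposite signs, -0.84 ± 0.30 and 0.71 ± 0.27, and HES1 was higher in all Nanog MO samples and lower in all Klf4 MO samples than in their controls. Of the 18 hedgehog genes, the co-receptors BOC and GAS1 were below 0 at an unadjusted p under 0.05, GAS1 at -0.74 ± 0.27. The floor plate and endoderm factor FOXA2 was above 0 at 0.88 ± 0.43, with an unadjusted p of 0.0589 in edgeR. BOC was called in this list with the random block and in the Nanog effect.

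The lists of general cell functions given here, apart from the cytosolic ribosomal protein genes, had medians near that of all genes. The 22 mitotic cell cycle genes tested had a median difference of -0.02, with medians of -0.18 in the Nanog effect and -0.15 in the Klf4 effect, and none had an unadjusted p under 0.05. The G2/M genes (46 tested) and S phase genes (41 tested) of the Seurat lists had medians of -0.05 and -0.06. One G2/M gene, TMPO, which encodes a nuclear lamina protein, had an unadjusted p under 0.05. TMPO was at 239 and 252 CPM in the Klf4 controls and 312, 310.2, 323 and 319 CPM in Klf4 MO samples, without overlap, with effects of -0.01 ± 0.06 and 0.36 ± 0.08. Cytosolic ribosomal protein genes were below 0 in 65 of 70, against 51.2% of all genes, with a median of -0.15 and none at an unadjusted p under 0.05. That median ran from -0.23 to 0.20 over 25 alternatives, and was above 0 in 1 of them, the fixed block with 1 RUVs factor. In 57 of the 70 ribosomal genes the Nanog effect was below 0 and the Klf4 effect above 0, and 3 had the reverse. Over all 18835 genes tested these counts were 4285 and 4191. The median effects of these ribosomal genes were small, at -0.03 for Nanog and 0.10 for Klf4. The 24 tested genes of the pluripotency associated list had a median of -0.01, 12 above and 12 below 0, and those of smallest p were ZIC2 and MYCN, described above.

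**Figure D5:**
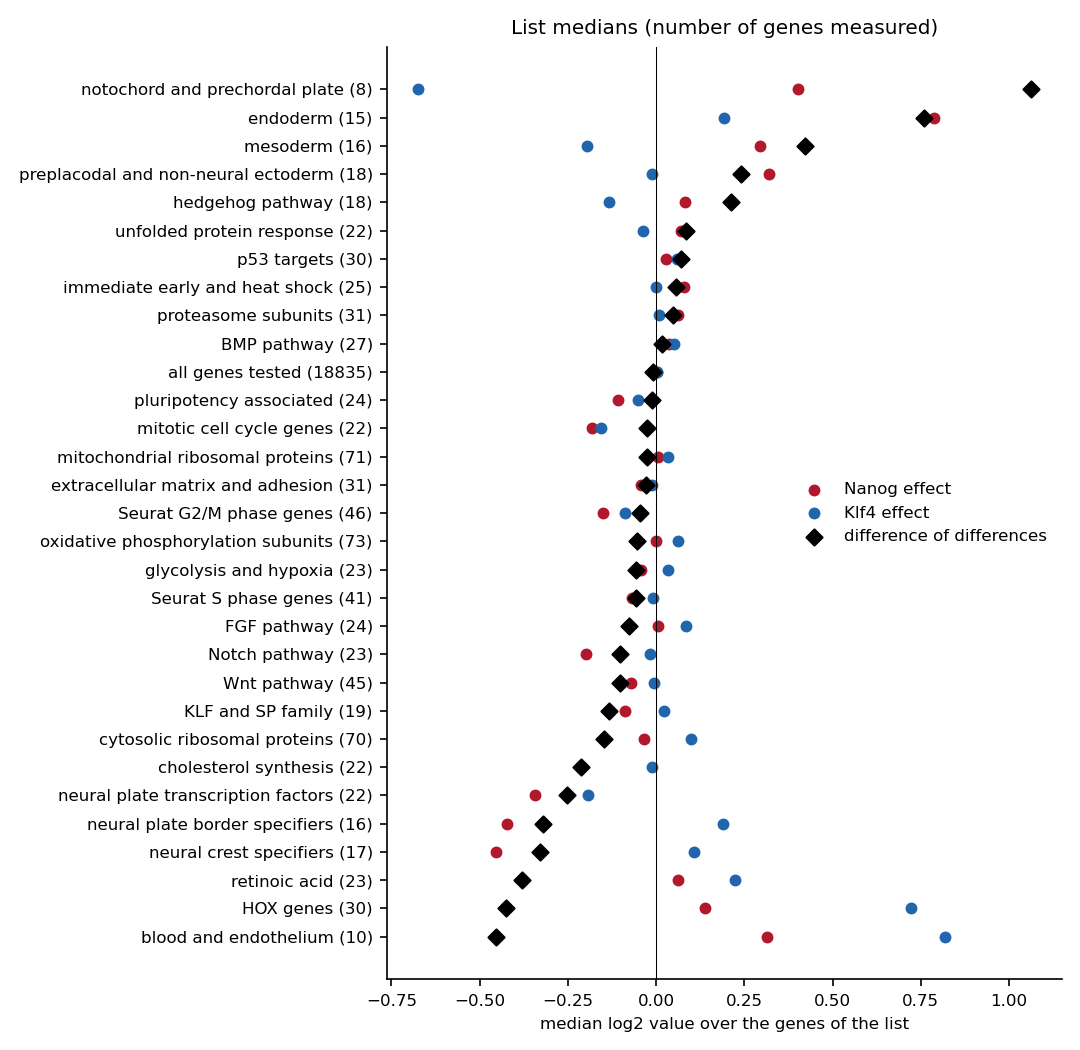
Median log2 value of each gene list for the Nanog effect (red), the Klf4 effect (blue) and the difference of differences (black), in order of the last, with the number of genes measured in brackets. Border and crest specifiers have a median Nanog effect below 0 and a median Klf4 effect above 0, notochord and prechordal plate genes have the reverse, and the 18835 genes tested lie near 0.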

How the data were processed

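The 14 samples were bulk libraries from pooled NPB tissue of chicken embryos, in which the MO and control MO sides of the same embryos were collected separately. The authors aligned the reads with STAR (version 2.7.2a in the submitters' processing notes, genome build GRCg6a) and deposited raw counts per gene. The annotation release and strand setting are not given in the sources used here, so reads of overlapping and antisense genes cannot be told apart. The authors also deposited a table of CPM signal after TMM scaling, which served here for its gene symbols only. The authors' own comparisons, with RUVs and DESeq2, were not used. Totals were 31215191 to 44726348 counts per sample.

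From the deposited counts, a gene was kept (18835 of 24356) where any of the 14 samples held over 5 of its reads, and edgeR 4.0.16 in R 4.3.3 was fitted to 4 groups with TMM factors and its quasi-likelihood test, with Benjamini-Hochberg adjustment over all genes tested and a threshold of 0.05. Of the tested genes 13663 had a symbol, 12462 from that table and 1201 from a RefSeq gene table. Where 59 symbols had more than 1 gene ID, the one of highest mean CPM was kept. Log2 ratios within pools used a pseudocount of 0.5 CPM. The replicate block assumed, from the bilateral design, that a shared replicate number joins both sides of one set of embryos. No label ties the numbers to embryos. In a check, the deviations of the 2 sides correlated at 0.53 to 0.65 in 5 of 6 pools and at -0.01 in Nanog pool 4. The block was fitted as a fixed term in edgeR on the 12 partnered samples and as a random term in limma 3.58.1 (voom with duplicateCorrelation) on all 14. No label says whether the pools were made on separate days, so p-values measure the spread between these pools.

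Alternatives were RLE factors, DESeq2 1.42.0, no gene filter, filterByExpr, 1 RUVs factor from 1000 genes, the 12 partnered samples without a block, all 19 samples, sample quality weights and leaving out each sample. Scripts were tested on simulated data. Genes were named by rule: the 3 targeted genes, the 10 genes of smallest p in each direction with a symbol and a mean of at least 1 CPM (with called genes first), list members that were called, and up to 4 members of each list by smallest p. The 3 genes without a symbol were named because the random block called them. Other genes outside this rule are marked as named after their values were seen, as were TFAP2B, SOX9 and FOXD3 among the list members. Tissue markers came from a separate list. Some list members that the rule names are not reported here. Members, lists and tests were chosen with earlier results of these data known.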

Additional observations from a re-analysis of the deposited data

Results flagged for a closer look

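The difference of differences was itself tested with the pool as a random block, and its value passed the threshold there for 12 genes (limma voom, adjusted over all genes), none of which passed in edgeR without a block. The log2 values in that fit were -1.46 for MSX1, -1.01 for SALL3, -0.96 for BOC, -0.90 for HUNK, -0.82 for TM7SF3 and -0.80 for ITPKB. They were 0.54 for MLX, 0.94 for MDM2, 1.72 for ALK, 2.23 for ENSGALG00000048920, 3.36 for ENSGALG00000038424 and 3.46 for ENSGALG00000049182.

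A single sample lay far from the other 3 of its group in 7 of 192 groups of 4 samples examined (3.65%), where chance gives about 1 in 20. MDM2 was at 161 CPM in Nanog MO replicate 1, against 113 to 120.4 CPM in the other 3. ENSGALG00000049182 was at 1.47 CPM in Klf4 MO replicate 1, against 0.567 to 0.687 CPM, and at 3.22 CPM in Nanog MO replicate 2, against 1.94 to 2.09 CPM. ENSGALG00000038424 was at 0.652 CPM in Nanog control MO replicate 3, against 0.303 to 0.347 CPM. NOG was at 3.78 CPM in Klf4 MO replicate 1, against 2.07 to 2.32 CPM, and at 3.97 CPM in Nanog MO replicate 1, below the 5.19 to 5.33 CPM of the others. GAS1 was at 4.88 CPM in Nanog MO replicate 3, below the 6.54 to 6.72 CPM of the others.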

How the results depend on the processing

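The count of genes called in the difference of differences was 0 with RLE factors, no gene filter, filterByExpr, 1 RUVs factor, the fixed replicate block, the 12 partnered samples without a block and all 19 samples. It was 29 with DESeq2, 12 with the random replicate block, 3 with the fixed replicate block and 1 RUVs factor (0 of them among the 12), and 1 with sample quality weights. Leaving out 1 sample from the edgeR test gave 0 to 3 genes, the 3 without Klf4 MO replicate 1. After the data were seen, the random replicate block was repeated without each sample. It called 0 and 1 genes without Klf4 control MO replicates 3 and 1, 23, 6, 3 and 10 without Klf4 MO replicates 1 to 4, 9, 9, 9 and 11 without Nanog control MO replicates 1 to 4, and 10, 9, 2 and 49 without Nanog MO replicates 1 to 4. It was also repeated without pool Nanog 4, which gave 22 genes, 11 of them among the 12. Leaving out a Klf4 control leaves 1 control, whose spread is taken from the other groups.

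The 52 genes of the Nanog effect became 197 with DESeq2, 438 with the fixed replicate block, 1058 with that block and 1 RUVs factor, 578 with the random replicate block, 33 with all 19 samples, 111 with sample quality weights, and 18 to 117 with 1 sample left out. The 0 genes of the Klf4 effect became 17 with DESeq2, 7 with 1 RUVs factor, 101 with the fixed replicate block and 1 RUVs factor, and 5 with the random replicate block, and stayed 0 with each sample left out.

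Of the named genes, 2 of the targeted ones changed sign. NANOG was at -0.19 with the fixed replicate block, -0.49 with the block and 1 RUVs factor, -0.24 on the 12 partnered samples. With 1 sample left out NANOG ran from -0.35 to 0.47, and lay below 0 without Klf4 control MO replicate 1, Klf4 MO replicate 2 or 4, or Nanog control MO replicate 2 or 4. KLF4 was at 0.065, 0.095 and 0.046 in the first 3 of these settings. The cause was not tested. With 2 Klf4 controls, ENSGALG00000038424 rests on few reads, and BNC2 was also low in those controls.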

Other observations

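Other gene groups had single members apart from 0 in the difference of differences, for HOXA4 and HOXB7 mostly through the Klf4 side. HOXA4, a posterior patterning gene, had a Nanog effect of 0.23 and a Klf4 effect of 1.20, and HOXB7 -0.15 and 3.93 at a mean of 0.180 CPM. Neither was called by edgeR or with the random block. The median of the 30 HOX genes, only 8 of which had a mean of at least 1 CPM, was -0.43, which became 0.15 without Nanog control MO replicate 2. In the retinoic acid list RBP4, the gene for the plasma retinol carrier and at 0 to 0.584 CPM in the PouV samples, had effects of -0.07 and 1.56. EGR2, the hindbrain and immediate early gene also called Krox20, had -0.83 and 0.71. In the cholesterol synthesis list 19 of 22 genes were below 0, against 51.2% of all genes. The list median was -0.21, with median effects of -0.21 for Nanog and -0.01 for Klf4, and none had an unadjusted p under 0.05.

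The PouV samples entered the fits above only where all 19 samples were used. Their values are given for some of the genes above against their own 2 controls. PHLDA3 was at 0.269 and 0.50 CPM in PouV control MO and at 1.27, 2.15 and 2.03 CPM in PouV MO samples, a log2 effect of 2.23 ± 0.44 (edgeR adjusted p = 0.162 in a fit of all 19 samples). CDKN1A was at 4.95 and 8.77 CPM in the controls and at 15.1, 38.9 and 20.7 CPM in PouV MO samples, with 1.86 ± 0.49 (adjusted p = 0.47). MDM2 groups overlapped, with 0.41 ± 0.25. MSX1 was at 37.2 and 115 CPM in the controls and at 22.5, 135 and 76.9 CPM in PouV MO samples, so its groups overlapped too. HUNK had 0.00 ± 0.22 and SALL3 -0.32 ± 0.23. None of these was called.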
